A study of Oryctolagus cuniculus with 16 samples.

Results

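A group of 26 rabbit genes stood well above the sham level in vein grafts on day 7 after surgery while lying near or below it on day 1. The members were chosen from the deposited log2 values, with each gene represented by its brightest probe. They are the genes whose mean on day 7 exceeded the sham mean by at least 1.5 on the log2 scale and whose mean on day 1 exceeded it by less than 0.75. Of 1090 genes that could be named through the RefSeq accession of a probe, 154 passed the day 7 limit, and 127 of those were already at or above the day 1 limit. SLC3A2 also passed both limits and was the only gene that the exclusions removed. These covered symbols with prefixes of solute carriers, ion channels, interleukins, matrix metalloproteinases and drug-metabolizing enzymes. VCAN, SPP1, APOE, MSR1 and SOAT1 were excluded by name. Since the differences from sham chose the members, those differences are given here as descriptions. Calls and standard errors from a model of all genes are printed for the members too, but they are no test of them, since the choice fixed their outcome.

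RNA was taken from vein tissue of male rabbits and hybridized, labelled with Cy3, to Agilent one-colour arrays with 45220 spots. The 3 groups were vein grafts removed on day 1 (6 arrays), vein grafts removed on day 7 (6 arrays) and veins of a sham surgery group (4 arrays, O1 to O4). No genetic change and no drug is given for any group, and strain, age and the number of animals per array are not given in the sources used here. The values below are log2 signals, quantile-normalized across all arrays from the intensities that the scanner software wrote.

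Some arrays of a group were nearer to each other than spots of 1 probe on the same array. Day 1 arrays 1, 3 and 5 differed from each other in log2 signal with an SD of 0.0848 to 0.102, as did arrays 2, 4 and 6, where the spread between spots predicted 0.212. On day 7 the arrays in the same positions differed with an SD of 0.0600 to 0.0724. Such arrays were averaged, which left 2 samples on day 1, 2 samples on day 7 and 4 sham samples. Graft arrays at different positions differed with an SD of 0.200 to 0.210, close to the spread between spots, so that the values do not settle whether they are separate samples. The sham arrays fell into the pairs O1 with O2 (SD 0.251) and O3 with O4 (SD 0.206), with 0.728 to 0.737 across the pairs. The sham arrays shared a scan that held no graft array, so that scan and surgery cannot be told apart in any difference from sham. The labels number the arrays as replicates, and the paper speaks of 6 graft samples on day 7 and 4 sham samples. Nothing in the labels says that the arrays come from separate animals, and the spread between samples may be technical. Of the probes on an array, 32973 to 36319 exceeded the background clearly, and the number of arrays limits the precision.

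A vein placed in the arterial circulation loses cells from its wall early, is entered by leukocytes, and then thickens as smooth muscle cells and fibroblasts divide and lay down matrix. Secreted and membrane proteins are translated into the endoplasmic reticulum, where chaperones and oxidoreductases fold them before vesicles carry them to the Golgi. Hyaluronan, collagens and adhesive glycoproteins form the matrix of the thickening wall, and plasminogen activators help cells to move through it.

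**Figure D1:**
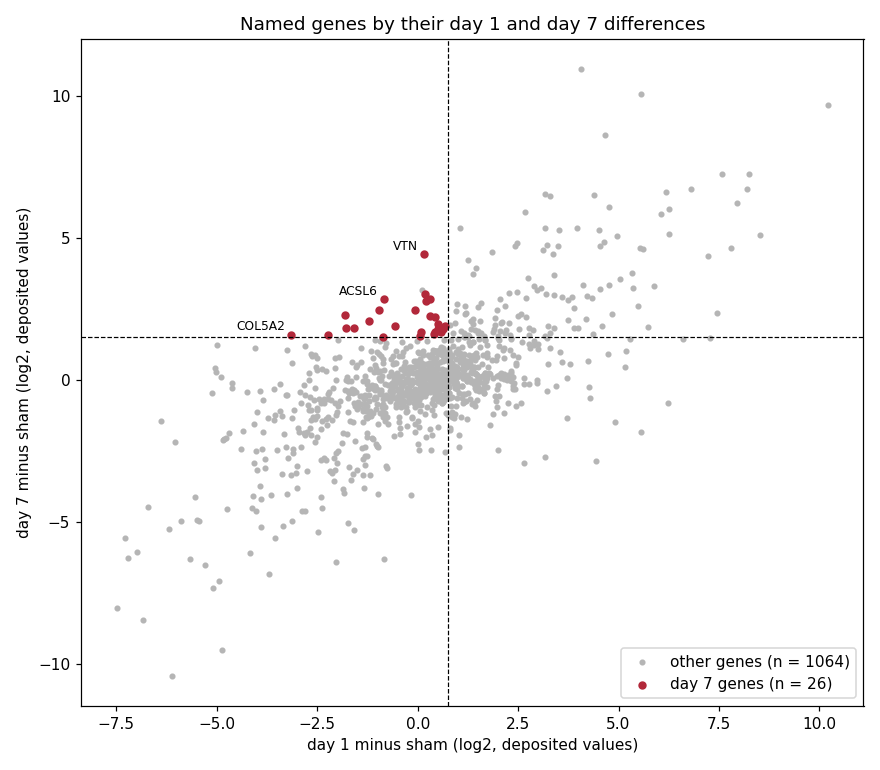
Each point is 1 of the 1090 named genes, with the day 1 minus sham difference on the horizontal axis and the day 7 minus sham difference on the vertical axis, both in log2 units of the deposited values. Dashed lines mark the limits of 0.75 and 1.5, and the 26 members (red) fill the upper left corner, from VTN with 4.42 on day 7 down to HAS2 with 1.52.

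The limits cut through a continuous spread of values. By the deposited values, the members just inside the day 7 limit were HAS2 at 1.52, SELENOF at 1.54 and PDIA3 at 1.58 over sham, and the nearest genes outside it were GNPTAB at 1.41 and SSR3 and ARL6IP5 at 1.39. Just inside the day 1 limit stood TNFSF4 at 0.68, PLAU at 0.64 and LDHA at 0.59, and just outside it LOC100338822 at 0.80 and NPY at 0.87. The 127 genes that passed the day 7 limit but not the day 1 limit had a median day 7 minus day 1 difference of 0.10, against 2.48 for the members, as the limits themselves impose.

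All 26 members had a value on all 16 arrays and passed the filter on dim probes, 22 of them were well above background on every array, and none was saturated. In the scanner values, the day 7 samples were higher than every sham sample for 25 members, SGK1 being the exception, and higher than both day 1 samples for all 26. Day 1 was less uniform. Both day 1 samples lay below all sham samples for 9 members and above them for 9, and the ranges overlapped for 8. Shares of all genes with such separation were not computed, so these counts only describe the members. Those of day 7 were favoured by the choice itself. The median member was 1.91 above sham on day 7, where the median of all 18112 genes fitted was 0.07. It was 0.12 above sham on day 1 (all genes 0.29) and 2.53 above day 1 on day 7 (all genes -0.15).

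A limma model of all genes called 25 members higher on day 7 than in sham, where 30.2% of all genes were called in either direction, 17.8% higher and 12.5% lower (adjusted p below 0.05 and a log2 difference of at least 1). It called 23 members higher on day 7 than on day 1, against 19.2% of all genes in that direction, 22.0% lower and 41.3% in either, and left out VTN, SGK1 and MYH3. On day 1 it called 5 members lower than sham (GJA1, ICAM5, P4HB, COL5A2 and PDIA3), against 21.1% of all genes, and 0 higher, against 29.0% (50.1% in either direction), although 6 were higher at an unadjusted p below 0.05. These counts describe the choice of members and carry no evidence beyond it. With the arrays of the different positions averaged as well, a choice added after the data were seen, limma called 9 members higher on day 7 than in sham (5.32% of all genes) and 0 higher than on day 1. That fit holds 1 sample per graft group and 2 sham samples, so that its spread comes from sham alone. In it 0 of all genes were called between day 7 and day 1, 6699 had an unadjusted p below 0.05, and 20 of the members were among those.

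**Figure D2:**
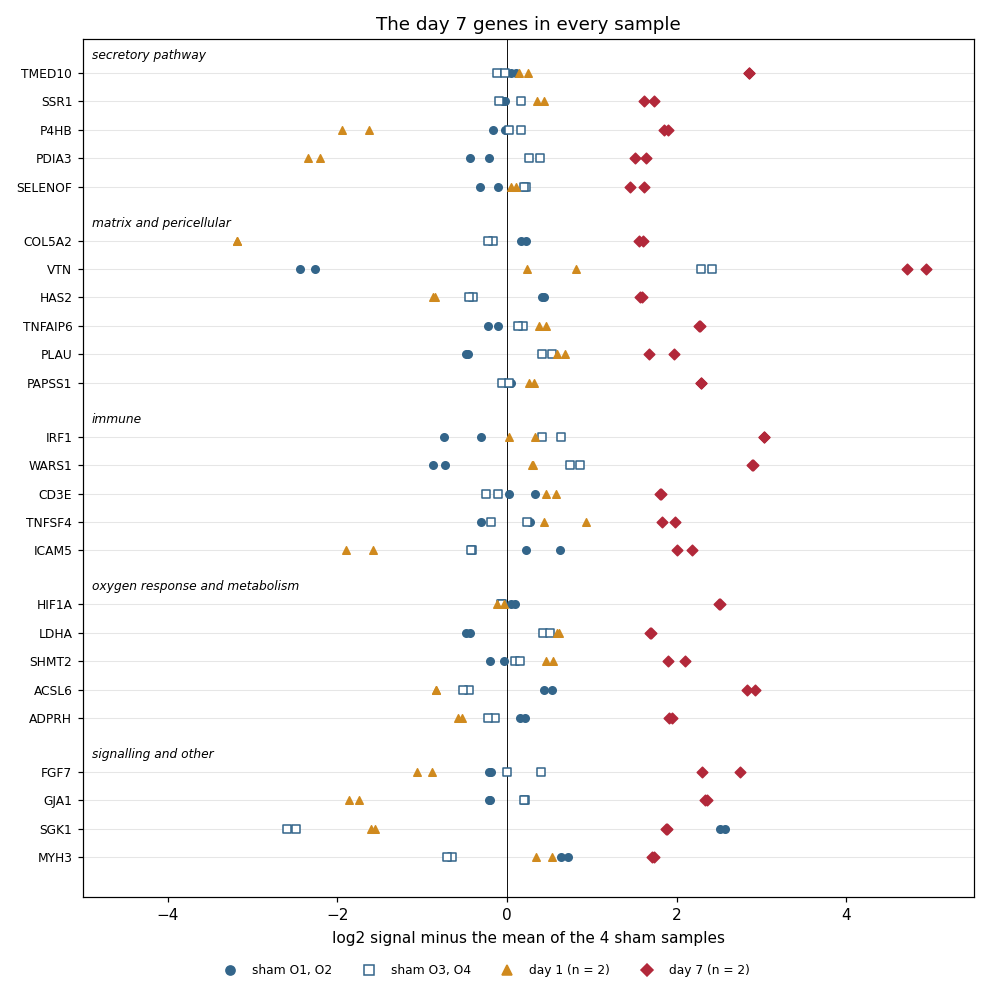
Each row is 1 of the 25 members described singly, grouped by role, and each point is 1 sample, placed by its log2 signal minus the mean of the 4 sham samples (circles O1 and O2, open squares O3 and O4, triangles day 1, diamonds day 7). The day 7 diamonds lie to the right of every other point in each row but that of SGK1, and the day 1 triangles range from -3.18 for the mean of COL5A2 to 0.68 for that of TNFSF4.

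Among the members that serve the secretory pathway, TMED10, a cargo receptor of the p24 family in vesicles between endoplasmic reticulum and Golgi, had log2 signals of 12.10 and 12.21 on day 1, 14.81 and 14.81 on day 7, and 12.07, 12.002, 11.83 and 11.93 in sham. The day 7 mean was 7.20-fold above the sham mean, with a log2 difference of 2.85 and a standard error of 0.10 in the fit, and the day 1 samples stood just above the highest sham sample. Over the 5 probes of TMED10 the day 7 difference ran from 1.47 to 2.85, with the chosen probe highest. The standard error does not cover that spread. SSR1 is a subunit of a complex associated with the translocon, the channel through which new proteins enter the endoplasmic reticulum. It measured 14.66 and 14.75 on day 1, 16.03 and 15.93 on day 7, and 14.26, 14.29, 14.47 and 14.22 in sham. Its day 7 mean was 3.19-fold above sham, SSR1 being named after its values were seen, and again the day 1 values lay between sham and day 7. SELENOF, a selenoprotein of the endoplasmic reticulum that takes part in the quality control of glycoproteins, had log2 signals of 16.87 and 16.81 on day 1, 18.39 and 18.22 on day 7, and 16.67, 16.45, 16.99 and 16.97 in sham. Its day 1 samples lay within the sham range, and day 7 was 2.90-fold above the sham mean.

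The protein disulfide isomerases followed another course. P4HB, which forms disulfide bonds and is also the beta subunit of the prolyl 4-hydroxylase that modifies collagen, measured 4.83 and 4.52 on day 1, 8.36 and 8.32 on day 7, and 6.43, 6.30, 6.49 and 6.62 in sham. The sham mean was 3.45-fold above the day 1 mean, and day 7 was 3.67-fold above sham and 12.7-fold above day 1. P4HB rests on 1 probe, and background correction by the normexp method shrank these differences. On the log2 scale they were then -0.54 for day 1 minus sham and 1.66 for day 7 minus day 1. With that method P4HB was no longer called lower than sham on day 1. PDIA3, the isomerase that acts on glycoproteins held by calnexin and calreticulin, had log2 signals of 13.60 and 13.74 on day 1, 17.45 and 17.58 on day 7, and 15.73, 15.50, 16.20 and 16.34 in sham. Its day 1 samples were all below the sham samples (mean difference -2.27, standard error 0.24), and its day 7 samples were all above them (1.57, standard error 0.24). By the chosen probes, P4HB and PDIA3 were below the sham range on day 1 and TMED10, SSR1 and SELENOF were within it or slightly above it, although 5 of 7 other probes of SELENOF were below sham.

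Among the members, COL5A2, the alpha 2 chain of the fibril-forming collagen V, had the widest gap between the graft times. It measured 13.61 and 13.62 on day 1, 18.41 and 18.36 on day 7, and 17.03, 16.97, 16.63 and 16.58 in sham. The day 1 mean was 3.18 below the sham mean on the log2 scale, written as a sham to day 1 ratio of 9.09, while day 7 was 2.99-fold above sham and 27.2-fold above day 1. HAS2, a synthase of hyaluronan, had log2 signals of 9.22 and 9.24 on day 1, 11.65 and 11.68 on day 7, and 10.50, 10.52, 9.69 and 9.64 in sham. Day 1 lay below every sham sample and day 7 above every one, with a day 7 difference from the sham mean of 1.58 (standard error 0.29). TNFAIP6, also called TSG-6, a secreted protein that binds hyaluronan and transfers heavy chains to it, measured 14.64 and 14.73 on day 1, 16.53 and 16.55 on day 7, and 14.05, 14.17, 14.46 and 14.40 in sham. Both graft times stood above all sham samples for TNFAIP6. The differences from the sham mean were 0.42 on day 1 and 2.27 on day 7 (standard error 0.14 for each). Over the 7 probes of TNFAIP6 the day 7 difference ran from 1.40 to 3.15, a spread that the standard error does not cover.

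VTN encodes vitronectin, an adhesive glycoprotein of plasma and matrix that binds integrins and the plasminogen activator inhibitor PAI-1. It had log2 signals of 4.18 and 4.75 on day 1, 8.65 and 8.88 on day 7, and 1.51, 1.68, 6.36 and 6.23 in sham. Of the 4 sham arrays, only 2 had VTN well above background, and day 1 lay between the sham pairs, with a mean difference from sham of 0.52 whose sign changed with the scaling. The arrays without VTN above background were O1 and O2, so that its day 7 difference of 4.82 from the mean of all sham samples (standard error 1.54) is not a measured size. Against O3 and O4, where it was detected, the day 7 difference was 2.47, and both day 7 samples exceeded the highest sham sample by at least 2.30. PLAU, the urokinase that turns plasminogen into plasmin, measured 15.13 and 15.03 on day 1, 16.11 and 16.41 on day 7, and 13.98, 13.95, 14.86 and 14.97 in sham. Its day 1 samples exceeded every sham sample, narrowly for O3 and O4, and day 7 was 3.53-fold above the sham mean. PAPSS1 makes the sulfate donor used on glycosaminoglycans. Its log2 signals were 13.53 and 13.46 on day 1, 15.49 and 15.49 on day 7, and 13.25, 13.19, 13.14 and 13.22 in sham. The sham samples of PAPSS1 had an SD of 0.045, the smallest among the members, and its day 7 mean was 4.88-fold above them.

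Several members act in immune responses. IRF1, a transcription factor induced by interferon gamma, had log2 signals of 4.16 and 3.85 on day 1, 6.86 and 6.86 on day 7, and 3.09, 3.53, 4.46 and 4.25 in sham. Day 1 lay inside the sham range and day 7 was 8.16-fold above the sham mean. WARS1, the tryptophanyl-tRNA synthetase, is another gene that interferon gamma induces. It measured 10.32 and 10.33 on day 1, 12.90 and 12.92 on day 7, and 9.28, 9.14, 10.76 and 10.88 in sham, so that day 1 fell between the sham pairs. Day 7 was 7.43-fold above the sham mean of WARS1 and 6.02-fold above day 1. IRF1 was the only one of 24 listed interferon-responsive genes with a named probe in the fit, and WARS1 was not on that list.

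CD3E, a chain of the T cell receptor complex, had log2 signals of 5.42 and 5.29 on day 1, 6.65 and 6.65 on day 7, and 5.17, 4.86, 4.73 and 4.59 in sham. Both graft times lay above all sham samples, with differences from the sham mean of 0.52 on day 1 and 1.81 on day 7 (standard error 0.16 for each). TNFSF4, the OX40 ligand of antigen-presenting cells, measured 3.47 and 3.97 on day 1, 4.86 and 5.01 on day 7, and 2.72, 3.30, 2.84 and 3.27 in sham. No sham array and 4 of 6 day 1 arrays were well above background for TNFSF4, so that its day 7 difference from sham is not a measured size. Sham was also set to the lowest signal well above background on each array, or the probe's own where higher. Day 7 was then 3.58-fold above sham, which is no lower limit, since other probes are undetected at higher signals. ICAM5, an adhesion molecule of the ICAM family known mainly from neurons, had log2 signals of 1.73 and 2.05 on day 1, 5.81 and 5.63 on day 7, and 3.85, 4.25, 3.22 and 3.20 in sham. It was not well above background on any day 1 array, so that its day 7 difference from day 1 is not a measured size. With day 1 set in the same way, day 7 was 4.28-fold above it, again no lower limit, and the normexp method gave a log2 difference of 0.62. Day 7 was 4.26-fold above the sham mean of ICAM5. These 3 genes and IRF1 were dim, and their day 7 difference from sham shrank to between 0.29 for TNFSF4 and 0.96 for IRF1 when the background was corrected by the normexp method.

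HIF1A, the oxygen-regulated subunit of hypoxia-inducible factor, measured 14.19 and 14.10 on day 1, 16.72 and 16.73 on day 7, and 14.27, 14.31, 14.15 and 14.16 in sham. The mean day 1 difference of -0.08 changed its sign with the scaling, and day 7 was 5.66-fold above sham with a standard error of 0.09 on the log2 scale. LDHA, the lactate dehydrogenase subunit that is among the targets of hypoxia-inducible factor, had log2 signals of 16.54 and 16.56 on day 1, 17.63 and 17.64 on day 7, and 15.51, 15.46, 16.37 and 16.46 in sham. Its day 1 samples were above all 4 sham samples, with a mean difference of 0.60, and its day 7 mean was 3.22-fold above sham.

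SHMT2, the mitochondrial enzyme that passes a carbon unit from serine to folate, measured 8.57 and 8.49 on day 1, 9.93 and 10.12 on day 7, and 7.99, 7.82, 8.12 and 8.17 in sham. The order was sham, day 1, day 7 without overlap, with differences from sham of 0.51 and 1.999 (standard error 0.13 for each). ACSL6, which joins long-chain fatty acids to coenzyme A, had log2 signals of 6.63 and 6.63 on day 1, 10.39 and 10.30 on day 7, and 7.999, 7.91, 7.02 and 6.95 in sham. Its day 1 samples were below every sham sample and its day 7 mean was 13.1-fold above day 1 and 7.34-fold above sham. ADPRH removes ADP-ribose from arginine residues. It measured 6.75 and 6.80 on day 1, 9.27 and 9.23 on day 7, and 7.54, 7.47, 7.19 and 7.10 in sham, which placed day 1 below the sham range and day 7 3.80-fold above the sham mean.

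FGF7, the keratinocyte growth factor that mesenchymal cells secrete, had log2 signals of 9.17 and 9.34 on day 1, 12.53 and 12.98 on day 7, and 10.04, 10.01, 10.64 and 10.23 in sham. Its day 1 samples were below all sham samples (mean difference -0.98) and its day 7 mean was 5.74-fold above sham. GJA1, a connexin of gap junctions, measured 8.90 and 8.78 on day 1, 12.98 and 13.01 on day 7, and 10.43, 10.45, 10.86 and 10.85 in sham. For GJA1 the sham mean was 3.50-fold above day 1, and day 7 was 5.10-fold above sham and 17.8-fold above day 1.

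MYH3, the embryonic heavy chain of skeletal muscle myosin, had log2 signals of 5.43 and 5.62 on day 1, 6.80 and 6.82 on day 7, and 5.82, 5.73, 4.44 and 4.38 in sham. Day 1 lay between the sham pairs, and day 7 was 1.72 above the sham mean with a standard error of 0.45. Myosin heavy chain genes resemble each other closely, and the specificity of the probe was not tested. SGK1, a kinase induced by serum and glucocorticoids, measured 6.80 and 6.86 on day 1, 10.29 and 10.30 on day 7, and 10.92, 10.98, 5.93 and 5.82 in sham. Its day 7 samples were below O1 and O2 and far above O3 and O4, so that its place among the members rests on the mean of sham pairs whose difference, O3 and O4 minus O1 and O2, was -5.08.

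The sham pairs bore on the members unevenly. Over the members, the median absolute difference between the mean of O1 and O2 and that of O3 and O4 was 0.41, where the median over all genes was 0.28. It was under 0.5 for 15 members and at least 1 for 5 (VTN, SGK1, WARS1, MYH3 and IRF1). Set against each sham pair alone, 18 members were at least 1.5 higher on day 7 over both, 20 were less than 0.75 higher on day 1 over both, and 16 met both conditions. The 10 that did not were VTN, WARS1, SGK1, PLAU, MYH3, LDHA, COL5A2, PDIA3, SELENOF and HAS2. Relative to O1 and O2, the day 1 difference was 1.11 for WARS1, 1.11 for PLAU and 1.06 for LDHA, above the day 1 limit, and VTN was not well above background on these arrays, so that its difference from them is not a measured size. Relative to O3 and O4, the day 7 difference was 1.35 for PLAU, 1.32 for SELENOF, 1.25 for PDIA3 and 1.22 for LDHA, below the day 7 limit. When the selection itself was repeated on the deposited values without O1 and O2 it gave 24 genes, of which 20 were members, and without O3 and O4 it gave 20 genes, of which 18 were members.

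**Figure D3:**
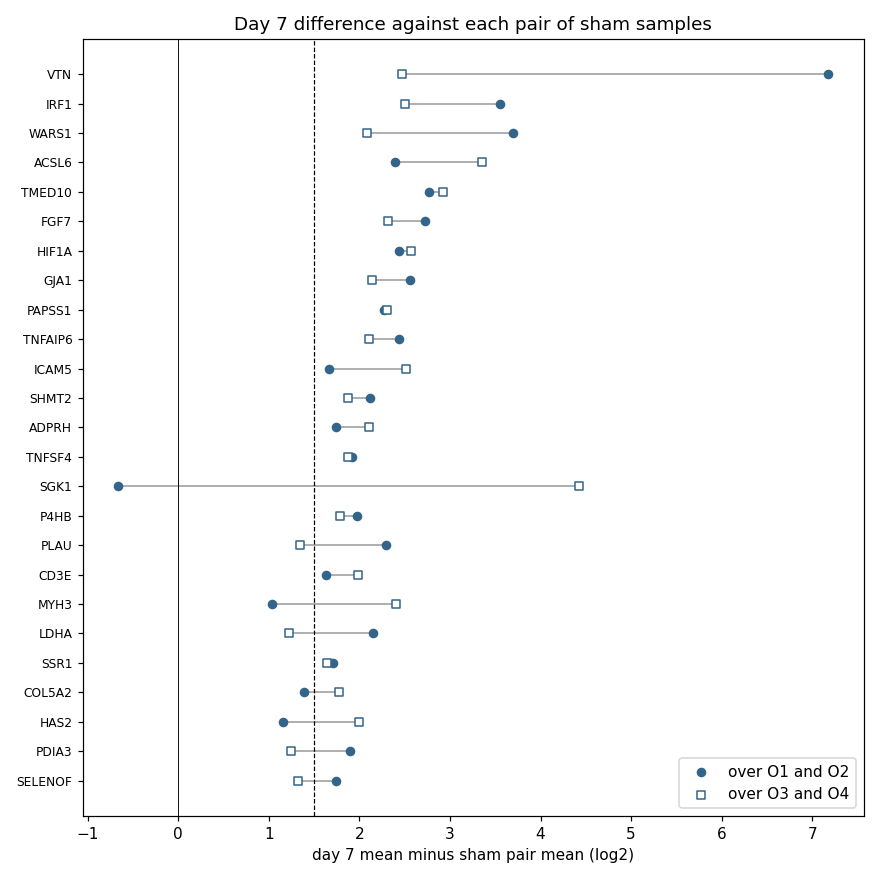
Each row is 1 of 25 members, ordered by its day 7 difference, and the points give the day 7 mean minus the mean of sham O1 and O2 (filled circles) and minus the mean of O3 and O4 (open squares) in log2 units. The dashed line marks 1.5, and 17 of the 25 rows have both points at or beyond it, while SGK1 spans from -0.66 to 4.42. VTN was not well above background in O1 and O2, so that its circle is not a measured size.

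The day 7 samples themselves were near each other, with a median absolute difference of 0.04 over the members, as were the day 1 samples with 0.09. Day 1 and day 7 arrays shared 3 scans, each with 1 array of every averaged graft sample. The scans are therefore not counted as replicates, which rests on the nearness of the arrays and not on their labels. Within each scan the median member was 2.56, 2.53 and 2.51 higher on day 7 than on day 1. Day 1 was always at positions 1 and 2 and day 7 at 3 and 4, so that position and day cannot be told apart.

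Other probes of the same genes gave a reading on the same samples that the selection had not used, so they are no independent samples. Of the 26 members, 17 had another probe that was well above background on all 16 arrays, with 46 such probes in all. Their day 7 mean was above the sham mean for 46 of 46, and 29 were past both limits. Since these probes target the chosen genes, the choice favoured that outcome, and shares over all probes were not computed. Every other probe was past both limits for ACSL6 (4 of 4), FGF7 (5 of 5), SGK1 (3 of 3), HIF1A (2 of 2) and ADPRH (2 of 2), among others. For 5 members none was. The other probes of COL5A2, HAS2 and PDIA3 differed from sham on day 7 by 1.28, 1.22 and 1.15, below the limit, with day 1 differences of -3.36, -0.92 and -2.03.

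LDHA had 4 other probes, all of them higher on day 1 than the limit allows, with differences from sham of 0.79 to 1.20 on day 1 and 1.67 to 2.13 on day 7. By any of those probes LDHA would not have met the day 1 limit. PLAU had 2 others, with day 7 differences of 1.30 and 0.99 and day 1 differences of 0.77 and -1.05, so that its probes differed in sign on day 1. SELENOF had 7, of which 1 was past both limits. Their day 7 differences ran from 0.53 to 1.58 and their day 1 differences from -1.07 to 0.30, with 5 of the 7 below sham on day 1. The probes of WARS1 disagreed on day 1, where the chosen probe was 0.30 above sham and the other 2.56 below it, and were close on day 7 at 2.89 and 3.40. The 4 other probes of TNFSF4 that passed the filter were well above background on 6 to 9 of the 16 arrays and are not counted. Averaged over all probes of each gene, the selection gave 25 genes, of which 20 were members.

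**Figure D4:**
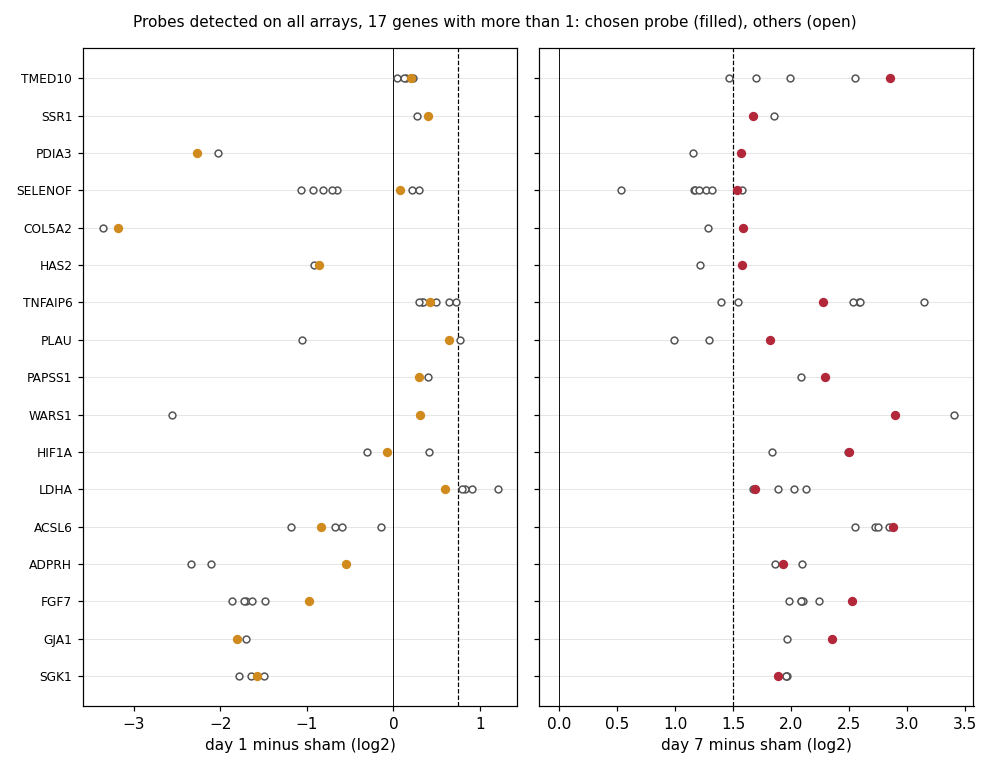
Each row is 1 of the 17 members with more than 1 probe well above background on all 16 arrays, and each point is a probe, with its day 1 difference from sham in the left panel and its day 7 difference in the right panel (log2 units, chosen probe filled, others open). Dashed lines mark 0.75 and 1.5, and every point in the right panel lies above 0, with the lowest at 0.53 for SELENOF.

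The genes of 12 pathway lists put the members beside their neighbours. Of 310 genes in the lists, 74 had a named probe in the fit, 10 of them members, and 58 were named by a RefSeq accession like the members. Counts below are limma calls with the members included, which enter by their choice. Of 6 collagen and collagen-processing genes tested, 3 were higher and 1 was lower on day 7 than in sham, and on day 1 there was 1 higher and 5 lower (medians 0.56 and -2.25, all genes 0.07 and 0.29). COL1A2, a chain of the most abundant fibrillar collagen, had mean log2 signals of 19.02 in sham, 16.31 on day 1 and 19.02 on day 7, and was not called above sham on day 7 as COL5A2 was. Of 10 matrix glycoprotein and proteoglycan genes, 6 were lower on day 1 and none higher, while on day 7 there were 3 higher, which were the members HAS2, TNFAIP6 and VTN, and 2 lower. In day 7 against day 1, 6 of these 10 were higher.

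Of 10 glycolysis genes, 5 were higher on day 7 than in sham and 1 was lower, with 1 in each direction on day 1. ENO1, the enolase named through a gene identifier of the supplement, stood at 0.23 on day 1 and 2.38 on day 7. PKM, the pyruvate kinase, was called on both days at 2.45 and 3.18, and GAPDH, at 0.66 and 0.69, on neither. Of 9 genes on the T cell list, 5 were higher on day 7 and 6 on day 1. Against day 1 there were 2 higher on day 7, which were the members CD3E and TNFSF4, and 3 lower (CD4, CD5 and IFNG). TNFSF4 is on that list as a ligand of antigen-presenting cells, not as a gene of T cells themselves. The calls of CD3E and TNFSF4 against day 1 were lost with scaling to the 75th percentile (differences 0.47 and 0.13), where both were called higher than sham on day 1, and with normexp (0.52 and 0.23). CD4 was 2.63 above sham on day 1 and -0.12 on day 7, and CD5 was 2.90 above it on day 1 and 1.39 on day 7, whereas CD3E was 0.52 and 1.81 above it. IFNG, which encodes interferon gamma, was 5.90 above sham on day 1 and 3.36 on day 7.

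Of 12 growth factors and receptors tested, 3 were higher on day 7 than in sham (TGFBR1, FGF7 and CSF2) and 5 were lower, while on day 1 there were 3 higher and 7 lower. FGF2, of the same family as FGF7, was 1.29 below sham on day 7. Of 7 mitosis genes, none a member, 5 were higher on day 7 and none lower, and on day 1 there were 2 higher and 1 lower (CDK2). CCNB2 and CCNE1 among them met both limits in the deposited values. They could not be members, since their probes had no RefSeq name. Of 7 antigen presentation genes, none a member, 4 were higher and 1 was lower (CD1D) at both times, and the lysosomal list had 2 of 4 higher at both times. The vacuolar proton pump list had 1 of 3 higher at both times. The complement list had 1 of 4 higher on day 7, and 2 higher and 1 lower (C1S) on day 1, and the single DNA replication gene tested was not called.

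Marker genes of cell types also moved between the groups. In bulk tissue, fewer cells of a type and less RNA per cell cannot be told apart. Of 101 marker genes, 26 had a named probe in the fit, and no endothelial, natural killer, mast cell or erythroid marker was among them. All smooth muscle markers tested (ACTA2, MYH11 and DES) were well above background in sham, as the tissue label implies. Their summed signal on the log2 scale was 18.26 to 19.01 in sham, 13.51 to 13.57 on day 1 and 17.59 to 17.84 on day 7. That of the 3 fibroblast markers was 19.94 to 20.02 in sham, 17.09 on day 1 and 19.63 to 19.67 on day 7. The smooth muscle sum follows its brightest gene, ACTA2, with means of 18.20 in sham, 13.06 on day 1 and 17.71 on day 7, whereas MYH11 (16.67, 11.34 and 10.18) and DES (11.49, 9.64 and 7.69) were lowest on day 7. On day 1, 2 of 3 smooth muscle markers (ACTA2 and MYH11) and 3 of 3 fibroblast markers were called lower than sham, and on day 7 it was 2 of 3 (MYH11 and DES) and 1 of 3 (DCN). The 9 members whose day 1 samples lay below all sham samples were COL5A2, P4HB, PDIA3, GJA1, HAS2, FGF7, ACSL6, ADPRH and ICAM5. ACTA2 and the fibroblast sum were lowest on day 1 too, but MYH11 and DES were not. Whether these courses are related was not tested.

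The 3 neutrophil markers summed to 13.12 to 14.64 in sham, 19.35 to 19.40 on day 1 and 16.90 to 16.93 on day 7, and the 4 T cell markers to 7.63 to 7.85, 10.27 to 10.28 and 8.94 to 8.96, highest on day 1 in both lists. The T cell sum follows its brightest gene, CD5 (means of 7.03 in sham, 9.93 on day 1 and 8.42 on day 7). CD4 was highest on day 1 too (4.99, 7.62 and 4.86), but CD3E was highest on day 7 (4.84, 5.35 and 6.65). CD28 was called in no comparison. The single macrophage marker tested, CD14, measured 10.46 to 11.63 in sham, 16.59 to 16.60 on day 1 and 15.51 to 15.90 on day 7. The single B cell marker, MS4A1, was highest on day 1 too, at 7.43 to 7.85 against 4.84 to 5.64 in sham and 5.75 to 5.76 on day 7. The 3 dendritic cell markers, 1 of them lower than sham at both times, summed to 10.11 to 10.67 in sham, 9.80 to 9.85 on day 1 and 10.39 to 10.49 on day 7. That sum joins unlike courses, with CD1B at means of 8.25, 9.58 and 10.08 and CD1D at 9.82, 6.85 and 8.14. CD1A and CD1B were called in no comparison. The 3 skeletal muscle markers summed to 7.42 to 8.87 in sham, 12.03 to 12.13 on day 1 and 7.74 to 8.44 on day 7, whereas MYH3 was highest on day 7, and CKM, the muscle creatine kinase, was not well above background on day 7.

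Adipocyte and nerve markers separated the sham pairs. The 3 adipocyte markers summed to 10.53 and 10.60 in O1 and O2 and to 16.93 and 16.89 in O3 and O4, against 11.12 to 11.14 on day 1 and 9.14 to 9.18 on day 7, with ADIPOQ not well above background on any day 1 array. The sum follows its brightest gene, LPL (means of 13.49 in sham, 11.09 on day 1 and 9.01 on day 7). ADIPOQ (9.36, 2.33 and 4.89) was instead called higher on day 7 than on day 1, and LEP was called in no comparison. The 2 nerve markers summed to 10.63 and 10.68 in O1 and O2 and to 13.58 and 13.50 in O3 and O4, with 5.58 to 5.75 on day 1 and 6.67 to 6.76 on day 7. VTN was higher in the same sham pair and SGK1 lower. The part of any cell type in the differences of the members was not tested.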

How the data were processed

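The authors deposited, for each array, the signal intensity of every spot from Agilent Feature Extraction 9.1 (45220 spots, rabbit, build oryCun2 in the file headers), and a table of log2 values for 33670 probes made with GeneSpring by quantile normalization and a filter on low intensity. The deposited log2 values chose the members, through RefSeq accessions matched to symbols in a table of the assembly mOryCun1.1 (3368 probes, of which 2761 probes of 1090 genes were in the deposited table). The members and the lists were chosen with earlier results of these data known. The deposited and scanner values correlated with an r of at least 0.9998 on each array, across probes.

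From the scanner signal, control spots and flagged spots (1.46% on at least 1 array) were dropped, the log2 signals were then quantile-normalized, spots of a probe were averaged, and arrays whose difference had at most 0.5 times the variance between spots were averaged, a limit set after the arrays had been compared. A gene's probe was that with the highest deposited mean, and some group had to have it well above background on all its arrays, which left 18112 genes. limma 3.58.1 (lmFit, eBayes) in R 4.3.3 with the packages jsonlite (2.0.0) and data.table (1.17.8) fitted the 3 groups together, with two-sided p-values adjusted by Benjamini-Hochberg over all genes. Calls needed an adjusted p below 0.05 and a log2 difference of at least 1. The model was tested on simulated data. Lists and markers were also named by means of the study's supplement, as far as its text could be read (2816 further probes). For figures, matplotlib 3.10.9 was used with pandas 2.3.3 under Python 3.11.15.

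Values in every sample are given for the 20 members with the largest day 7 difference, the 10 with the largest day 7 minus day 1 difference, members on a list, and those at the limits. The values of 1 member and of 1 gene outside the day 1 limit are not reported here, and both stay in the counts. The arrays' headers place day 1 at positions 1 and 2 and day 7 at positions 3 and 4 of 3 scans, and sham in a scan of its own. No gene coordinates, promoters or protein sequences were used here, and the planned search for promoter motifs was not run. The deposited intensity files give the median spot signal and not the mean, so the normexp alternative (offset 50) used median signals.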

Additional observations from a re-analysis of the deposited data

How the results depend on the processing

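Over all genes, the day 7 to sham, day 1 to sham and day 7 to day 1 comparisons gave 5470, 9077 and 7465 calls, in this order here and below. Normexp background correction lowered them to 3285, 5389 and 3834, the members' median to 1.58 for day 7 minus sham and 1.74 for day 7 minus day 1, and the members called higher on day 7 than in sham from 25 to 19. Besides the dim immune genes, it lowered the day 7 difference to 1.95 for VTN, 1.12 for P4HB, 1.12 for SGK1 and 0.62 for MYH3. Averaging arrays at different positions too, which was added after the data were seen, left 1604, 6647 and 0 calls. Scaling to the 75th percentile raised the members' median day 7 difference to 2.42 and the genes selected from 26 to 44, of which 19 were members (CD3E, IRF1, LDHA, MYH3, PLAU, TNFSF4 and VTN were lost). That scaling moved the median of all genes from 0.29 to 0.69 for day 1 minus sham and from -0.15 to -0.52 for day 7 minus day 1, and the share of calls that were higher from 57.9% to 70.7% and from 46.6% to 29.0%. Normexp selected 19 genes, 14 of them members. The mean of all probes of a gene gave a median day 7 minus day 1 difference of 2.28.

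A day 7 limit of 1 selected 52 genes and of 2 selected 11, and naming through the supplement's gene identifiers selected 48. A day 1 limit of 0.5 selected 21 and of 1 selected 31. Without each sample in turn, the selection held 19 to 29 genes, the members' median day 1 difference ranged from -0.012 (without O1 or O2) to 0.16, and the median day 7 difference from 1.90 to 1.99. The selection fell to 21 without O3, which lost HAS2, MYH3, PLAU, SGK1 and VTN, and to 19 without O4, which lost these, LDHA and TNFSF4. Calls ranged from 5010 to 5519, from 8657 to 9195 and from 6801 to 7547. Without O1 and O2 together the median day 1 difference was -0.075, so that it has no settled sign. In each of these the cause was not tested.

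Replicate numbers did not pair the samples, with correlations of same-numbered deviations between -0.024 and 0.040. With the replicate number as a replicate block on 16 separate arrays, 5749, 9293 and 7874 genes were called. The members called for day 7 against day 1 went from 23 to 26 with 16 separate arrays, with the block and without it. The scan as a random block gave 5790, 9337 and 7878, and as a fixed block in day 7 against day 1 it gave 7903. The other alternatives (16 separate arrays, deposited values, no filter, all 16 arrays above background) changed no direction and no count by over 1.5 times. Signal near background limits TNFSF4, ICAM5, VTN and IRF1, which were not well above background on every array.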

Other observations

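Naming probes also through the gene identifiers of the study's supplement added 22 genes that met the same limits in the deposited log2 values, a choice made after the data were seen. They are described by the values that selected them, with no test. Several act in the cell cycle. KNL1, a kinetochore scaffold, was 0.45 below sham on day 1 and 3.81 above it on day 7, and CCNB2, a mitotic cyclin, had differences of -0.18 and 3.70. CCNE1, the cyclin of entry into S phase, had -0.68 and 2.02, CHEK2, a checkpoint kinase, had 0.53 and 1.92, and UBE2T, a ubiquitin-conjugating enzyme of the Fanconi anaemia pathway, had 0.24 and 2.47. SHCBP1 stood at -0.52 and 2.89.

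Others act in membrane traffic and lysosomes, like the secretory members above. CLTC, the clathrin heavy chain, had differences of -0.10 on day 1 and 1.99 on day 7, ASAH1, the lysosomal acid ceramidase, had -0.11 and 2.51, and GOLT1B, a Golgi transport protein, had 0.74 and 1.63. VAPA, which tethers the endoplasmic reticulum to other membranes, had 0.54 and 1.63, and YIPF4, a Golgi membrane protein, had 0.56 and 1.75. Of the metabolic and signalling genes, ENO1, the glycolytic enolase, had 0.23 and 2.31, LAP3, a leucine aminopeptidase, had -0.35 and 2.24, and NPR3, the clearance receptor of natriuretic peptides, had -1.07 and 2.73. FCGR1A, the high-affinity receptor for immunoglobulin G, had -0.53 and 2.21, and FGR, a kinase of myeloid cells, had 0.64 and 1.78. The other 6 (B4GALT5, ADAM9, GSPT1, TMEM192, RGS20 and KLHL6) had day 7 differences between 1.57 and 1.996.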
